A study of Homo sapiens with 12 samples.

Results

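The interleukin-1 family cytokines IL1A, IL1B, IL1RN, IL18, IL33, IL36A, IL36B, IL36G, IL36RN and IL37 were followed across 4 groups of glioblastoma cells. These 10 genes, taken by symbol and matched to their Ensembl identifiers, were the members among 58174 genes measured. The set was drawn up with results of these data in view, and IL36B was picked for its rise in resistant U87 cells. The U87 values of the members are therefore a description without a test, and the members were tested in U118 only. Their U118 p-values are not independent of how the set was drawn up. From sensitive to resistant cells, mean IL36B went from 0.673 ± 0.456 to 273 ± 6.42 TPM in U87 and from 2.39 ± 1.12 to 455.6 ± 269.6 TPM in U118 (SD, n = 3).

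Cytokines of this family are alarm signals of epithelial and immune cells. The agonists IL-1 alpha, IL-1 beta, IL-18, IL-33 and the IL-36 proteins bind a receptor and its accessory chain, which pass the signal through MyD88 and IRAK kinases to NF-kappa B and MAP kinases. The family holds its own brakes: IL1RN encodes the IL-1 receptor antagonist, IL36RN the IL-36 receptor antagonist, and IL-37 is an anti-inflammatory member. IL-36 beta is best known from skin and other epithelia, and IL-1 alpha and IL-1 beta belong to the secretory programme of senescent cells.

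U87 and U118 are established human glioblastoma lines, and temozolomide (TMZ) is the alkylating drug used against this tumour. All cells descended from CD133-CD15- cells sorted from these lines and were kept in medium with serum and BMP2, so the groups lack cells with those surface stem markers at the outset. The U87 sensitive and U118 sensitive groups were control cells, and the U87 resistant and U118 resistant groups were aggregation cells that had formed after exposure to TMZ at 50 μM. Each group had 3 mRNA-seq libraries, 12 in all, and the comparison asked which transcripts differ once resistant aggregates have formed. Nothing in the labels says that the 3 libraries of a group came from separate cultures, so p-values measure the spread between these libraries, which may be technical. Values are TPM, a unit in which reads are divided by transcript length and then brought to 1 common sum for each library. TPM holds no read counts, so the depth is unknown and no detection limit can be given.

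Across the libraries, the resistant U118 libraries stood nearer to U87 than to their own line. Their Spearman correlation across genes was 0.808 to 0.839 with sensitive U118 libraries but 0.895 to 0.909 with sensitive U87 libraries. With resistant U87 libraries it was 0.907 to 0.9135, the highest range with another group. Of 5475 genes called in U118, 91.8% had a resistant mean nearer to the sensitive U87 mean than to the sensitive U118 mean. Among the 5 members called in U118 this held for 1, IL37, and not for IL1A, IL1B, IL1RN or IL36B. These genes rose above both sensitive means, and their sensitive U87 means were the lower, so this measure could not place them nearer to U87. Means in resistant U87 and resistant U118 were 273 and 455.6 TPM for IL36B and 115 and 365 TPM for IL1RN. They were 2.79 and 91.4 TPM for IL1B and 0.813 and 2.87 TPM for IL1A. Each U118 result below rests on the libraries labelled U118 resistant, and the U87 values are the same comparison without them. Whether these libraries are of the line their label names was not tested, so statements on both lines below hold by label. In addition, U118 resistant replicate 1 stood apart from replicates 2 and 3, for several members and over the library as a whole. It had 15193 genes at 1 TPM or more, beside 13270 and 13545 in replicates 2 and 3. The sensitive U118 libraries had 15129 to 15290. Its mitochondrial share of TPM was 13.2%, beside 29.9% and 26.1% in replicates 2 and 3. The share of TPM from mitochondrially encoded genes was 22.2% to 23.7% in resistant and 12.9% to 16.9% in sensitive U87 libraries, and 13.2% to 29.9% against 7.42% to 19.7% in U118. The median log2 difference of all genes tested was -0.24 in U87 and -0.52 in U118, and a gene's difference should be read against it.

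Because these cytokines are typical of keratinocytes and myeloid cells, markers of both were read in the same libraries. Of 15 epithelial markers, KRT6A and the cornified envelope gene LOR were at 0 in all 12 libraries, while KRT10 was at 1 TPM or more in each. SFN was at 1 TPM or more in every U87 library, and KRT14 and KRT16 in every sensitive U118 library. KRT14 was at 0 in the resistant U118 libraries. The summed level was 35.6 to 37.1 TPM in sensitive and 41.3 to 43.6 TPM in resistant U87 libraries. In U118 the epithelial sum was 39.8 to 65.2 TPM in sensitive and 46.6 to 51.6 TPM in resistant libraries, which overlapped. Of 12 myeloid markers, AIF1 and TYROBP were at 0 in all 12 libraries, while CD68 and CSF1R were at 1 TPM or more in every library. FCER1G was at 1 TPM or more in every library of the resistant U118 group alone. PTPRC, LYZ, CD163 and CX3CR1 were at 0 in every library of the resistant U87 group alone. SPI1 was at 0 in every sensitive U87 and every resistant U118 library. The myeloid sum was 293 to 346 TPM in sensitive and 208 to 247 TPM in resistant U87 libraries, and 173 to 319.5 TPM against 319.0 to 395 TPM in U118. The glioma markers NES, VIM, CD44, EGFR and CHI3L1 were at 1 TPM or more in all 12 libraries, with SOX2 at 0 in U87. The epithelial and myeloid sums did not overlap between the U87 groups, and their part in the U87 values was not tested. In bulk RNA, fewer cells of a type and less RNA per cell cannot be told apart.

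Of the 10 members, 8 lie together with IL1F10, a family gene outside the set, on 360.1 kb of chromosome 2 (GRCh38, 112773915 to 113134016). From one end to the other the order is IL1A, IL1B, IL37, IL36G, IL36A, IL36B, IL36RN, IL1F10 and IL1RN. IL36B itself covers 113022091 to 113052867 on the minus strand, and IL36RN starts on the other strand after a gap of 5770 bases. IL18 lies on chromosome 11 (112143251 to 112164117) and IL33 on chromosome 9 (6215786 to 6257983). No other gene is annotated over IL36B. None of the 1839 stretches of 31 bases in its transcripts occurs, on either strand, in a transcript of another gene in GENCODE release 29, which bears on whether reads of another gene could be counted as IL36B.

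IL36B is shown here because it was the most abundant member in every resistant library. GENCODE release 29 gives it 2 protein-coding transcripts, IL36B-201 with 6 exons and IL36B-202 with 5. They share exons 1 to 4 and end in different last exons, so the proteins begin alike and end differently. The deposited value is per gene and does not say which transcript was made. The start and stop codons are in capitals.
IL36B, coding part of both transcripts (261 bases): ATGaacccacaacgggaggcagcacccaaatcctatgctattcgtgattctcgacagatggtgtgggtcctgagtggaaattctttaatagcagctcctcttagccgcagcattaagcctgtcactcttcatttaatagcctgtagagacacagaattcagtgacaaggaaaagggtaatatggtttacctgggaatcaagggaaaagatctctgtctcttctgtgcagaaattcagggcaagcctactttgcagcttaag
IL36B-201, rest of the coding part (234 bases): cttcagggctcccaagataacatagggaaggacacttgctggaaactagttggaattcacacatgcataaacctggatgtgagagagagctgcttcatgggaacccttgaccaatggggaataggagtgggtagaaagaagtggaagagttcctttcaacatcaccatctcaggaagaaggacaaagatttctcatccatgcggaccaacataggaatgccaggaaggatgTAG
IL36B-202, rest of the coding part (213 bases): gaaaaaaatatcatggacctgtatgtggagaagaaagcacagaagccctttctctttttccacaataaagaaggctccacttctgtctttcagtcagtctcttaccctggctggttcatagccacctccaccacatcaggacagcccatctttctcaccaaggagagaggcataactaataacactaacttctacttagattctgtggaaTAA

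Promoter letters were read because IL1A, IL1B and IL1RN were higher in resistant cells of both lines. RefSeq start sites (GRCh38.p14) were at hand for 8 of the 10 members, with 14 starts, not for IL18 or IL36B. In the 250 bases before each start, 4 motifs were searched on both strands: AP-1 (TGANTCA), kappa B (GGG, any 2 bases, then TTTCC), the TATA box (TATAAA) and the hypoxia response core (ACGTG). AP-1 letters were found for IL1A and IL1RN, and they occur in 6.57% of all 35116 promoters. This share is per promoter, while IL1A and IL1RN have 2 and 3 starts. The kappa B letters were found for IL1RN, at 1 of its 3 starts, and occur in 1.73% of all promoters. Windows of 30 bases around each distinct match follow, with the motif in capitals. A match is a description of letters and not a site of binding. Of the 250 bases before the 2 IL1A starts, 97 and 148 lie in an annotated exon of IL1A itself. Both IL1A windows lie within the annotated gene, which ends at 112784590. Before the 3 IL1RN starts, 78, 0 and 37 bases lie in an exon of IL1RN. For IL1B none of the 4 motifs was found, and 124 of the 250 bases before its start lie in an exon of IL1B.
IL1A, AP-1 letters, chr2:112784494-112784523, minus strand: acaaaaggcgaagaagacTGACTCAggctt
IL1A, second AP-1 letters, chr2:112784437-112784466, minus strand: tcattggcgttTGAGTCAgcaaaggtattg
IL1RN, AP-1 letters, chr2:113117737-113117766, plus strand: ttctgctagccTGAGTCAccctcctggaaa
IL1RN, kappa B letters, chr2:113127491-113127520, plus strand: aatgcgaggaGGGTATTTCCgcttctcgca
TATA box letters, found in 10.7% of promoters, occurred for IL1A, IL1RN and IL37. The hypoxia response core, found in 18.5%, occurred for IL1A.

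IL36B was barely expressed in sensitive cells of both lines and among the abundant transcripts in resistant ones. In sensitive U87 libraries its level was 0.988, 0.880 and 0.150 TPM. In resistant U87 libraries it was 279, 266 and 274 TPM. The lowest resistant library thus lay far above the highest sensitive library, with little spread among the resistant libraries, and IL36B ranked 429, 446 and 437 among all genes there. The difference on the log2(TPM + 1) scale was 7.40, given without a test because IL36B was chosen on it.

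In U118, IL36B stood at 1.68, 1.82 and 3.68 TPM in sensitive libraries. It stood at 145, 630 and 592 TPM in resistant libraries. The groups did not overlap, and resistant replicate 1 was well below replicates 2 and 3. The limma log2 difference was 6.85 (SE 0.52, adjusted p = 1.09e-05), and it was 7.54 (SE 0.26) without resistant replicate 1. The resistant U118 level also lay far above both sensitive groups, the sensitive U87 mean being 0.673 TPM. The resistant U87 mean was 273 TPM. Whether the U118 rise is separate from that in U87 was not tested.

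The other IL-36 agonists did not share this level. IL36A was at 0 in all sensitive U87 libraries and reached 0.104 TPM at most in resistant ones, and in U118 its highest value was 0.180 TPM. IL36G was listed at 0 in all 6 resistant libraries of the lines, with at most 0.176 TPM in sensitive U87 and 0.296 TPM in sensitive U118 cells. Neither gene passed the filter on low values in either line, so neither was tested. IL36B therefore stood alone among the 3 IL-36 agonists, although IL36A and IL36G lie on the same side of it on the chromosome.

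IL1RN, the secreted and intracellular antagonist of the IL-1 receptor, was the most abundant member of each sensitive library and stood next to IL36B in all resistant libraries but U118 resistant replicate 1. In U87 it was 2.33, 2.80 and 3.97 TPM in sensitive and 93.2, 164.7 and 87.3 TPM in resistant libraries, a log2 difference of 4.81 given without a test. In U118 it was 14.3, 25.7 and 19.3 TPM in sensitive and 74.7, 490.7 and 529 TPM in resistant libraries. The groups did not overlap in either line, and U118 resistant replicate 1 was again the lowest of its group. The U118 difference was 3.74 on the log2 scale (SE 0.66, limma adjusted p = 0.00159), and 4.66 (SE 0.24) without that replicate. IL1RN was the member with the highest sensitive level in each line, so it passed the filter through both groups, as did IL36B in U118.

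IL1B, the agonist that caspase-1 cleaves before release, reached very different levels in the lines. It was listed at 0 in all 3 sensitive U87 libraries and at 2.96, 2.58 and 2.84 TPM in the resistant ones. In U118 it was 0.694, 0.329 and 0.927 TPM in sensitive libraries and 106.6, 73.0 and 94.6 TPM in resistant libraries. Here replicate 1 was not low but the highest of the resistant group. The U118 log2 difference was 5.81, given without a p because IL1B passed the filter only through the resistant libraries.

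IL1A, whose precursor is already active and can sit on the cell surface, stayed low throughout. It was at 0, 0.0846 and 0 TPM in sensitive and 0.728, 0.680 and 1.03 TPM in resistant U87 libraries. In U118 it was 0.433, 0.402 and 0.745 TPM in sensitive and 3.46, 2.35 and 2.79 TPM in resistant libraries. The groups did not overlap in either line. The U118 log2 difference was 1.34, also without a p. IL1A and IL1B passed the U118 filter only through the resistant libraries, so a difference was built into their passing, and they missed the filter when any 1 resistant library was left out.

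IL33, a nuclear alarm cytokine, was low in both lines. It was at 0, 0.278 and 0.0432 TPM in sensitive and 1.33, 1.60 and 1.01 TPM in resistant U87 libraries, which did not overlap. In U118 it was at most 0.0869 TPM in any library and was not tested. IL18, the inducer of interferon gamma, stayed at 0.380 TPM or below in all 12 libraries, and all 3 resistant U87 libraries listed it at 0.

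Of the other brakes of the family, IL36RN was higher in resistant cells in U87, as IL1RN was, and overlapped in U118. It was at 0, 0 and 0.0377 TPM in sensitive and 3.05, 1.90 and 2.16 TPM in resistant U87 libraries, and these groups did not overlap. In U118 its sensitive libraries had 0.503, 1.10 and 0.673 TPM and its resistant libraries 1.26, 0.351 and 0.614 TPM, which overlapped. Resistant cells of both lines thus carried far more IL36B than IL36RN: the ratio of their TPM was 91.4 to 140.3 in U87 and 115.1 to 1796 in U118.

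IL37 was lower in resistant U118 libraries. Its sensitive U118 libraries had 1.19, 1.21 and 1.19 TPM and its resistant libraries 0.170, 0.0392 and 0 TPM. The log2 difference was -1.04, at the edge of the fold threshold, and is given without a p because IL37 passed the filter only through the sensitive libraries. It was under the fold threshold without resistant replicate 3 (-0.99). With median-ratio scaling, or with any 1 of the sensitive libraries left out, the gene no longer passed the filter. In U87 it was 0.251, 0.135 and 0 TPM in sensitive and 0.0781, 0.641 and 0 TPM in resistant libraries, which overlapped.

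Over the set, 6 of 10 members had U87 groups that did not overlap with resistant higher, namely IL1A, IL1B, IL1RN, IL33, IL36B and IL36RN, where 9.46% of all genes seen in U87 did so. None was lower without overlap, where 22.2% of genes were. The set was chosen with this contrast known, so nothing is read from the count. In U118, 4 members were higher without overlap (IL1A, IL1B, IL1RN and IL36B, beside 10.7% of genes) and 2 were lower (IL36G and IL37, beside 27.1%). By limma the same 4 were called higher in U118, where 8.64% of all genes tested were, and IL37 was called lower, where 26.6% were. Of these 5, IL1A and IL1B passed the filter only through the resistant and IL37 only through the sensitive libraries. Their calls support nothing, and the test bears on IL1RN and IL36B. For these genes too the set was drawn up with results of these data in view, and the resistant U118 libraries stood nearer to U87. Their U118 p-values are thus no independent test of the rise seen in U87. Only 5 members passed the filter in each line and 5 did not. The smallest p an exact permutation test of 3 against 3 libraries could give is 0.1, so none was run for single genes.

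The summed TPM of the 10 members followed IL36B and IL1RN. It was 3.57 to 4.69 TPM in sensitive and 368 to 439 TPM in resistant U87 libraries, and 19.5 to 30.9 TPM in sensitive and 331.5 to 1220.0 TPM in resistant U118 libraries. In sensitive cells IL1RN made up most of the sum, with 59.8% to 85.1% in U87 and 71.5% to 83.5% in U118. In resistant cells IL36B took 60.7% to 74.4% in U87 and 43.8% to 52.6% in U118.

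The balance of antagonist and IL-1 agonists differed between the resistant groups. The TPM of IL1RN divided by that of IL1A and IL1B together was 25.3, 50.5 and 22.6 in resistant U87 libraries. In resistant U118 libraries it was 0.679, 6.51 and 5.44, and in sensitive U118 libraries 12.7, 35.2 and 11.5, so these U118 groups did not overlap. In U118 resistant replicate 1, agonist transcripts outnumbered the antagonist. These ratios are of transcripts per length and say nothing of protein.

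**Figure D1:**
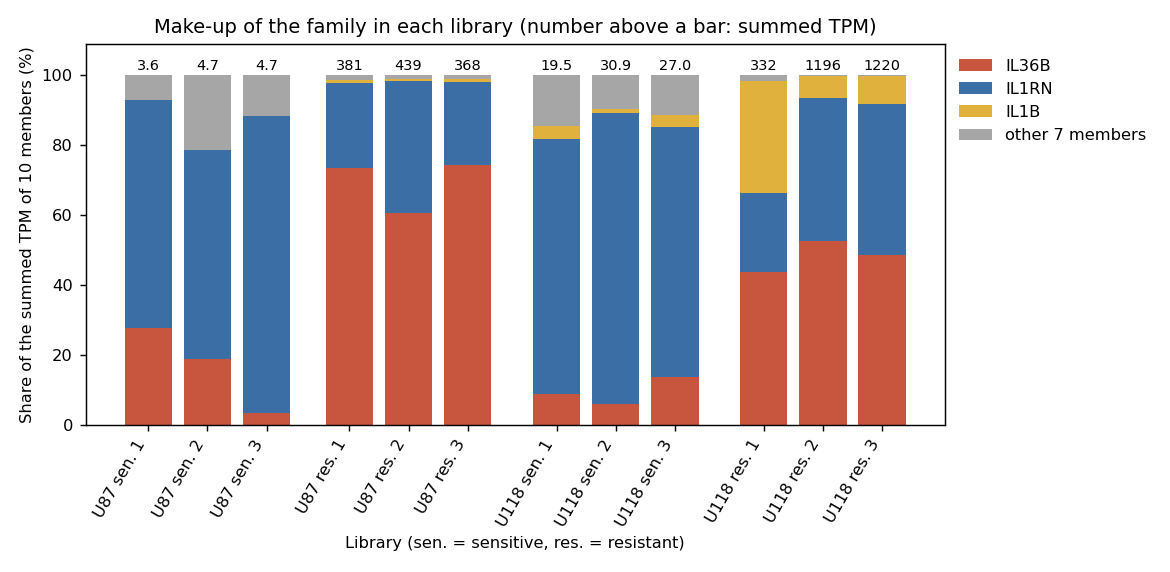
Share of the summed TPM of the 10 members taken by IL36B, IL1RN, IL1B and the other 7 members, as stacked bars that fill the whole for each of the 12 libraries, with the summed TPM above each bar. IL1RN fills most of each sensitive bar and IL36B is the largest part of each resistant bar, while IL1B takes 32.2% in U118 resistant replicate 1 and at most 7.75% in any other library.

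The genes beside the cluster on the chromosome were looked at to see whether the rise reached past the family. Within 1000000 bases of the IL1A to IL1RN span lay 68 other genes, of which 22 were tested in U87 and 26 in U118. By limma 0 were called higher in either line, where 3.03% of all genes tested were higher in U87 and 8.64% in U118, and at an unadjusted p under 0.05 there was 1 higher in each line. In U87, where 7.79% of all genes tested were called lower, 1 neighbour was: PAX8, a developmental transcription factor gene, fell from 37.4 ± 3.76 to 13.4 ± 1.14 TPM (log2 difference -1.41, SE 0.12, adjusted p = 0.000267). The U118 neighbours called lower were 8 of 26 (30.8%), near the 26.6% of all genes tested, so the share itself is no result about the neighbours. Of these, 2 were called with median-ratio scaling. With so few neighbours tested, the lack of higher calls cannot show whether the rise reached past the family.

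The U118 neighbours that fell lay on both sides of the cluster, which is a description of place and not a result. CKAP2L, a spindle gene and the nearest tested gene on the IL1A side, fell by 1.53 on the log2 scale. MERTK, a receptor tyrosine kinase, and FBLN7 fell by 1.55 and 1.53, and both were at or near 0 in U87. ANAPC1, of the anaphase-promoting complex, and POLR1B, of RNA polymerase I, fell by 1.30 and 1.28. The antisense gene PAX8-AS1, whose call was lost under most alternatives (limma adjusted p = 0.0464), fell by 1.59, AC016745.1 by 1.02 and IGKV1OR2-108 by 1.01. With median-ratio scaling MERTK and FBLN7 were still called, while CKAP2L (-0.99), ANAPC1 (-0.78), POLR1B (-0.76), IGKV1OR2-108 (-0.80) and PAX8-AS1 were not, and AC016745.1 missed the filter. MERTK, FBLN7, AC016745.1 and IGKV1OR2-108 passed the filter only through the sensitive libraries, so a difference was built into their calls. The values of PAX8-AS1 and PAX8, which overlap, cannot be told apart without strand. PSD4, the nearest tested gene on the IL1RN side, was not called in either line.

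**Figure D2:**
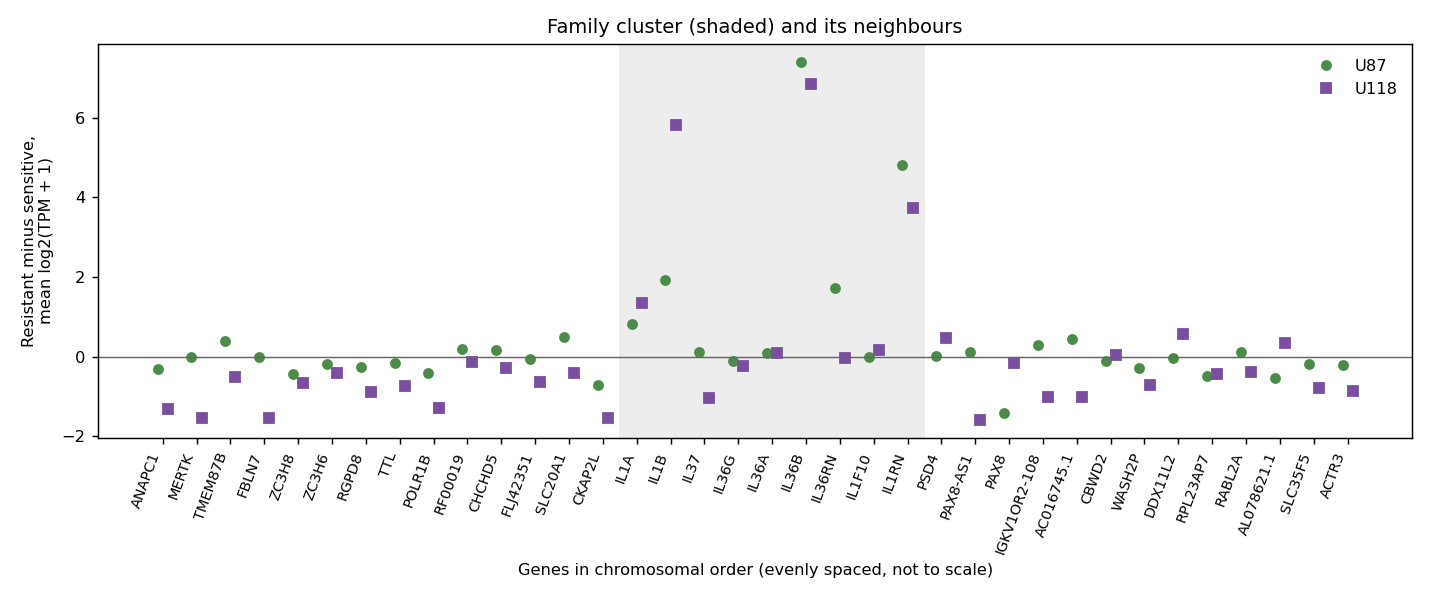
Difference between resistant and sensitive mean log2(TPM + 1) on the vertical axis for the family cluster (shaded) and its neighbours that passed the filter in at least 1 line, in chromosomal order and evenly spaced, with U87 as circles and U118 as squares. Within the shading IL36B, IL1RN and IL1B stand high while IL36G and IL36A between them lie near 0, and no neighbour outside it was called higher.

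Among the receptors, the IL-36 receptor gene IL1RL2 was listed at 0 in all 12 libraries. The genes for the receptors of IL-33 (IL1RL1) and IL-18 (IL18R1 and IL18RAP) reached at most 0.167 TPM in any library and were not tested. IL1RAP, the accessory chain shared by the receptors of IL-1, IL-33 and IL-36, was expressed in every library. Its means were 3.37 ± 1.56 and 2.60 ± 0.163 TPM in sensitive and resistant U87, and 3.99 ± 1.59 and 3.99 ± 1.496 TPM in U118 (SD, n = 3). It was not called in either line (limma adjusted p = 0.514 and 0.99), which does not show that its level was the same.

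IL1R1, the signalling receptor of IL-1 alpha and IL-1 beta, moved in opposite directions. In U87 it rose from 4.50, 6.67 and 5.20 TPM in sensitive to 14.9, 15.7 and 16.3 TPM in resistant libraries (log2 difference 1.38, SE 0.16, limma adjusted p = 0.000876). In U118 it fell from 18.2, 17.3 and 17.6 to 7.29, 3.004 and 6.43 TPM (log2 difference -1.58, SE 0.30, limma adjusted p = 0.00258). The resistant U118 mean of 5.57 TPM was near the sensitive U87 mean of 5.46 TPM. The difference between the lines was -2.96 (SE 0.35, limma interaction, adjusted p = 3.09e-05).

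SIGIRR, an inhibitory receptor of the family, showed the reverse. It rose in U118 from 0.754, 1.26 and 0.103 TPM to 11.03, 30.5 and 27.7 TPM (log2 difference 3.76, SE 0.41). Only the sensitive library at 1.26 TPM reached 1 TPM, so SIGIRR needed resistant libraries to pass the U118 filter. Part of the difference was thus built into its call, and no p is given for U118. The U87 values were 24.3, 29.03 and 24.7 TPM in sensitive and 19.7, 7.996 and 19.1 TPM in resistant libraries, which did not overlap but missed the threshold (log2 difference -0.79, adjusted p = 0.0917 by limma). The lines differed by 4.55 (SE 0.58, limma interaction, adjusted p = 5.22e-05). Here too the resistant U118 mean, 23.1 TPM, was near the sensitive U87 mean of 26.0 TPM.

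The decoy receptor gene IL1R2 was not tested, with 0.377, 0.308 and 0.180 TPM in sensitive and 0.941, 1.45 and 0.972 TPM in resistant U87 libraries. IL18BP, which encodes the soluble trap of IL-18, was not called in U87 (4.62 ± 0.843 and 4.37 ± 0.789 TPM) or U118 (5.41 ± 0.626 and 3.13 ± 1.74 TPM). Without U118 resistant replicate 1 it was called lower there (log2 difference -1.03, limma adjusted p = 0.00151). Of the 11 receptor genes, 4 were tested in each line.

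**Figure D3:**
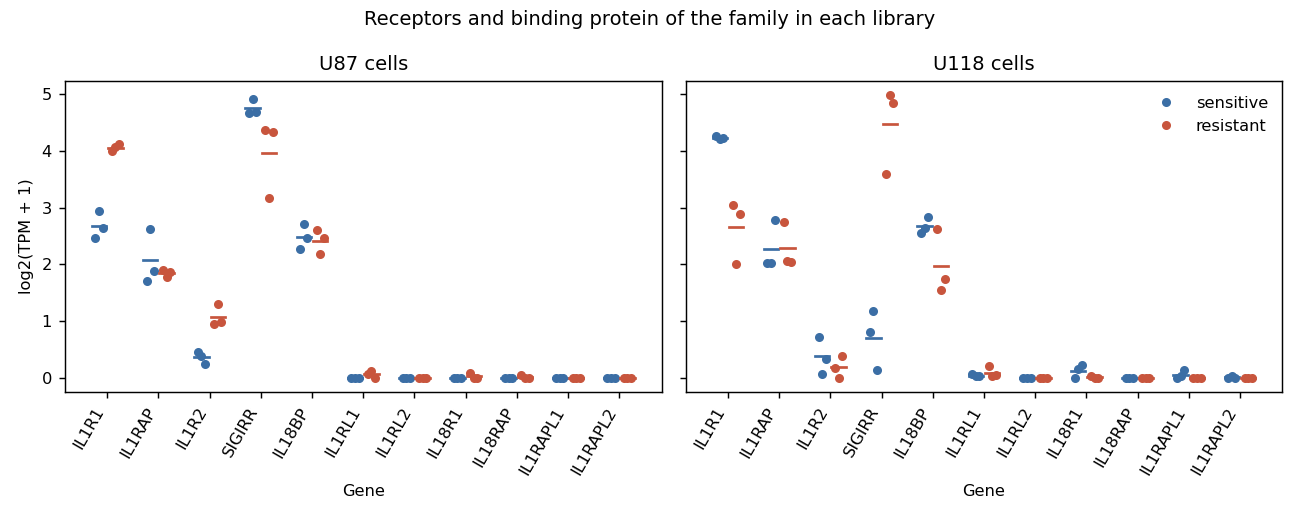
Level of the 11 receptor and binding protein genes as log2(TPM + 1) on the vertical axis, with 1 point per library and a bar at the mean of 3 libraries, sensitive in blue and resistant in red. IL1R1 is higher in resistant U87 and lower in resistant U118 libraries, SIGIRR is far higher in resistant U118 libraries, and IL1RL2 lies at 0 in every library.

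Genes for the maturation and release of the cytokines were called in U118 and not in U87. In U118, 4 of 15 tested were higher and 6 lower (66.7% together, where 35.3% of all genes tested were called). In U87, 0 of 13 were called by limma, where 10.8% of all genes tested were, although 6 had an adjusted p under 0.05 with a smaller change. At an unadjusted p under 0.05, 1 was higher and 8 were lower. PYCARD, the adaptor of inflammasomes, was at 0, 0.147 and 0 TPM in sensitive and 18.6, 19.4 and 16.6 TPM in resistant U118 libraries (log2 difference 4.19). It was at 0 in all 6 U87 libraries. AIM2, a DNA sensor, rose by 1.96 on the log2 scale, from 0.0189 ± 0.0327 to 3.09 ± 1.34 TPM. PYCARD and AIM2, both among the 4 called higher, passed the U118 filter only through the resistant libraries. A difference was thus built into their calls, and no p is given. CTSS, a protease reported to cleave IL-36 gamma, rose from 2.42 ± 0.414 to 17.4 ± 12.6 TPM, with 32.0 TPM in resistant replicate 1 and 10.8 and 9.46 TPM in the others.

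Other release genes of U118 fell. The sensor NLRP1 went from 73.3 ± 11.8 to 13.7 ± 3.45 TPM (log2 difference -2.35), CASP4, the caspase that senses lipopolysaccharide, from 127 ± 43.0 to 32.1 ± 10.3 TPM (-1.94), and CARD8 from 16.1 ± 0.594 to 4.66 ± 1.63 TPM (-1.63). Thus PYCARD, AIM2 and IL1B were higher in the same U118 libraries in which NLRP1, CASP4 and CARD8 were lower. The sensitive U87 means of NLRP1, CASP4 and CARD8 were 26.9, 33.9 and 12.5 TPM.

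Of the signalling genes, 2 of 24 tested were called in U87, both lower, where 7.79% of all genes were lower. In U118, 5 of 25 were called higher and 3 lower (32.0% together, near the 35.3% of all genes tested), so the share itself is no result about this list. The kinase gene IRAK1 fell in U87 from 679, 652 and 609 to 283, 238 and 312 TPM (log2 difference -1.22, SE 0.11, limma adjusted p = 0.000274). The U118 libraries rose instead, from 167, 173 and 88.1 to 346, 564 and 520 TPM (log2 difference 1.76, SE 0.31, limma adjusted p = 0.00173). IKBKG, the regulatory subunit of the I kappa B kinase, did likewise, with a fall from 74.7 ± 2.57 to 24.2 ± 1.00 TPM in U87 and a rise from 22.6 ± 2.07 to 47.4 ± 7.29 TPM in U118. The IRAK1 fall missed the fold threshold with median-ratio scaling (log2 difference -0.96), and the IKBKG rise in U118 did so without sensitive replicate 2 or resistant replicates 2 or 3 (0.95 to 0.98).

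NFKB2, a subunit of NF-kappa B, rose in U118 from 17.4 ± 1.82 to 63.7 ± 5.03 TPM, and MAP3K8, a kinase upstream of ERK, from 1.54 ± 0.881 to 5.84 ± 2.71 TPM. The kinase genes IRAK4 and MAPK14 and the ubiquitin-conjugating UBE2N fell by 1.30, 1.23 and 1.28 on the log2 scale. With median-ratio scaling the falls of IRAK4, UBE2N and MAPK14 were no longer called (-0.80, -0.75 and -0.71). Without sensitive replicate 3, MAP3K8 was no longer called either (1.12, limma adjusted p = 0.0607).

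Known target genes of IL-1 signalling were described by the same counts. In U87, 8 of 22 tested targets were higher (36.4%, beside 3.03% of all genes tested) and none lower, with a median log2 difference of 0.89 beside -0.24 for all genes. In U118, 16 of 28 were higher and 6 lower (78.6% together, beside 35.3%), with a median of 1.60 beside -0.52. CXCL8, CCL2, CCL5, CSF3, IER3 and C3 were higher in both lines. Many of these genes answer to other stimuli too, and the list was written with results of these data known.

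C3, the central complement gene, rose from 43.5 ± 3.49 to 422 ± 44.5 TPM in U87 and from 4.93 ± 0.462 to 272 ± 104 TPM in U118. CCL2, a chemokine for monocytes, rose from 2.52 ± 0.711 to 37.2 ± 1.66 TPM in U87 and from 0.208 ± 0.195 to 44.3 ± 4.63 TPM in U118. CSF3, which encodes granulocyte colony-stimulating factor, rose by 1.65 in U87 and by 6.61 in U118 on the log2 scale, to 266 ± 172 TPM. The early response gene IER3 rose by 1.17 in U87 and by 7.38 in U118, from 0.294 ± 0.185 to 221 ± 65.3 TPM. In U118, CCL2 and IER3 passed the filter only through the resistant libraries, so a difference was built into their calls there. SOD2, the mitochondrial superoxide dismutase, rose in U87 from 88.5 ± 27.0 to 359 ± 13.5 TPM and was not called in U118 (log2 difference 0.65).

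Other targets fell in U118 while IL1B rose. MMP1, a collagenase, went from 809, 681 and 821 TPM to 5.05, 1.28 and 1.64 TPM (log2 difference -7.86, SE 0.35, limma adjusted p = 6.87e-07). MMP3, a stromelysin, went from 1637 ± 91.4 to 27.5 ± 8.44 TPM, and BCL2A1, a survival gene, from 5.88 ± 1.49 to 0.168 ± 0.0194 TPM. BCL2A1 passed the U118 filter only through the sensitive libraries, so a difference was built into its call. The sensitive U87 mean of MMP1 was 3.24 TPM and that of BCL2A1 was 0, both near the resistant U118 means, while that of MMP3 was 227 TPM. TNFAIP3, the feedback inhibitor A20, was called in opposite directions, from 2.58 ± 0.517 to 6.95 ± 0.494 TPM in U87 and from 12.5 ± 0.467 to 5.44 ± 0.470 TPM in U118. Its U118 fall missed the fold threshold with median-ratio scaling (-0.57) and without mitochondrially encoded genes (-0.91).

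With median-ratio scaling the U118 calls over the 4 lists were 30 higher and 9 lower, beside 26 and 16 in the deposited scale. Over these lists, 63 genes were tested in both lines, of which 6 were called higher in both, none lower in both, and 4 (IL1R1, IRAK1, IKBKG and TNFAIP3) in opposite directions with the difference between lines called. Of all 13217 genes tested in both lines, a rise was called in each line for 1.01% and a fall in each line for 2.28%, while 1.66% went opposite ways by the same rule. The interaction called 25 of 72 pathway genes as changing more upward in U118 and 12 as changing more downward (51.4% together, beside 30.5% of all genes tested). Of the 42 pathway genes called in U118, 35 (83.3%) had a resistant mean nearer to the sensitive U87 mean, beside 91.8% of all called genes. The 7 exceptions were PYCARD, GSDMD, IL6, CXCL8, CSF2, LIF and ICAM1.

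**Figure D4:**
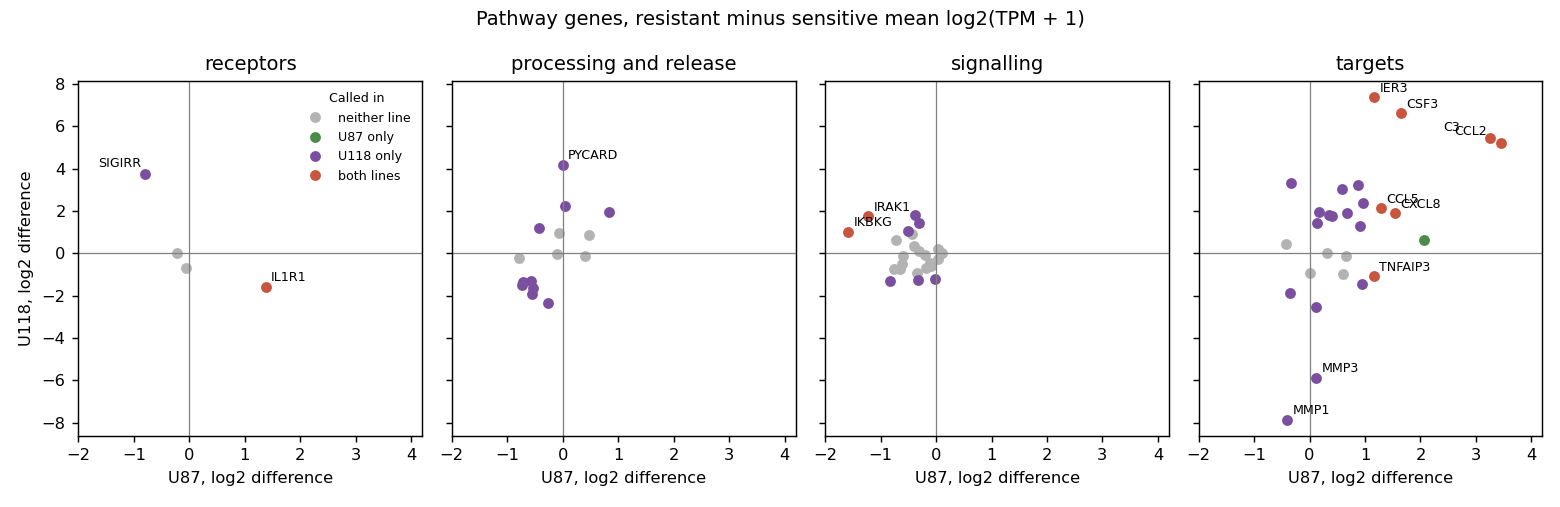
Difference between resistant and sensitive mean log2(TPM + 1) in U87 (horizontal) and U118 (vertical), 1 point per gene tested in either line, in 4 panels for receptors, processing and release, signalling and targets, coloured by the line in which limma called the gene. Targets called in both lines lie at the upper right apart from TNFAIP3, and IRAK1 and IKBKG lie at the upper left.

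The genes whose pattern was most like IL36B were read from Pearson's r of log2(TPM + 1) over the 12 libraries, among 16375 genes. They were MT-TV (0.972), MT-TM (0.962), CH25H (0.962), MT-TQ (0.962) and PSPN (0.955). MT-TV, MT-TM and MT-TQ are mitochondrial transfer RNA genes. The mitochondrial share of TPM, given above, separated the groups in U87 and overlapped between them in U118. Its part in this likeness was not tested. MT-TV averaged 18.8, 156.3, 27.0 and 235.6 TPM in sensitive U87, resistant U87, sensitive U118 and resistant U118 cells. No stretch of 31 bases is shared between IL36B and the mitochondrial transcripts. CH25H encodes the cholesterol 25-hydroxylase, and PSPN a neurotrophic factor. The libraries share lines and conditions, so these values describe a shared pattern and carry no p.

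The r of other members with IL36B was 0.935 for IL1RN, 0.796 for IL1A and 0.783 for IL1B. Among members, IL1A and IL1B had the highest r with each other (0.969). The genes outside the set most like IL1RN were CH25H (0.957), HHLA3 (0.943) and RRAS (0.929), so CH25H stood near both IL36B and IL1RN. Those most like IL1B were OTUB2 (0.985), OLAH (0.983) and KLRC2 (0.983), and those most like IL1A were MT-RNR1, TNFSF14 and CTH (0.978, 0.978 and 0.975). For IL33 they were OTX2P1, DNAH10 and RSPO3, for IL36RN TLE4, MDGA1 and LINC01705, and for IL37 P2RY6, AC138392.1 and CCDC144NL-AS1.

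The members' pattern was also read on other scales. Without the mitochondrially encoded genes, the ratio of mean IL36B levels, resistant over sensitive, was 448 in U87 and 223 in U118, beside 406 and 190.5 in the deposited TPM. With median-ratio scaling it was 486 and 313. For IL1RN the ratio was 37.9 in U87 and 18.5 in U118 as deposited, and 45.9 and 30.8 with median-ratio scaling. On each of these scales the lowest resistant library lay above the highest sensitive library for IL1A, IL1B, IL1RN and IL36B in both lines.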

How the data were processed

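RNA from 3 libraries in each of 4 groups was measured by mRNA-seq. The authors deposited gene-level TPM in 2 tables, 1 per line, with 58174 genes. Per the submitters' processing notes, FastQC 0.11.2, Trimmomatic 0.36, HISAT2 2.0 and bedtools 2.26.0 were used with GRCh38. The quantifier and its annotation are not given in the sources used here. TPM keeps no depth, and a gene can fall because others take more of the total. No per-sample column was left unused.

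The filter kept a gene that reached 1 TPM in 3 or more of a line's 6 libraries. A gene near 0 in 1 group can pass only through the other group, which builds a difference into its call. The counts over lists and over all genes include such genes. Kept genes were fitted with limma 3.58.1 (R 4.3.3; lmFit and eBayes with trend) on log2(TPM + 1), each line apart, and over all 12 libraries for the difference between lines (same filter over 12). A fold change on this scale understates that of low genes. Calls needed a p under 0.05 after Benjamini-Hochberg adjustment over all genes tested, and a log2 difference of 1 or more in size. The code was tested on simulated data. Levels were not tested between lines, whose tables are separate. Positions and transcripts came from GENCODE 29, which holds 57836 of the gene identifiers.

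The members, the 4 pathway lists and the marker lists were chosen with earlier results of these data known. Named by rule were all members, receptors that passed the filter, per list and line the top 3 called rises and falls without overlap of the groups, genes called in opposite directions, called neighbours, and the genes with the most similar pattern (5 for IL36B, 3 for each other member that passed the filter). IL1R2, PSD4, CXCL8, CCL5 and the genes listed as exceptions were named after their values were seen. Alternatives were a pseudocount of 0.1 TPM, no filter, median-ratio scaling, no trend, a replicate block, TPM without mitochondrially encoded genes, and leaving out each library.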

Additional observations from a re-analysis of the deposited data

Results flagged for a closer look

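Of 35 named genes outside the set, 26 (74.3%) changed differently in U118 and U87 by the limma interaction, beside 30.5% of all 16382 genes tested. Values are the log2 change in U118 minus that in U87. The named genes were selected for large changes, and some because this interaction was itself called, so part of the share was fixed by the selection. The share is therefore no result about these genes. In addition, the comparison rests on the resistant U118 libraries that stood nearer to U87. The members themselves were not put to this test.

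Among receptors the difference was -2.96 for IL1R1 and 4.55 for SIGIRR. Among the release genes it was 4.19 for PYCARD, 2.20 for CTSS and 1.13 for AIM2, and -2.09 for NLRP1, -1.39 for CASP4 and -1.10 for CARD8. Among the signalling genes it was 2.99 for IRAK1, 2.62 for IKBKG, 2.21 for NFKB2 and 1.73 for MAP3K8.

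Among the target genes the difference was 6.21 for IER3, 4.97 for CSF3, 2.20 for C3 and 1.77 for CCL2. It was -7.45 for MMP1, -6.00 for MMP3, -2.66 for BCL2A1, -2.23 for TNFAIP3 and -1.41 for SOD2. Among the neighbours of the cluster it was 1.26 for PAX8, -1.55 for MERTK, -1.53 for FBLN7, -1.46 for AC016745.1 and -1.31 for IGKV1OR2-108. Groups of 3 libraries were too small for a test of single outlying libraries.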

How the results depend on the processing

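The 4 members called higher in U118 were called under each alternative that kept all libraries. Leaving out 1 library gave 2 to 4 of them, with 2 whenever a resistant U118 library was left out, since IL1A and IL1B then missed the filter. The count of members called lower in U118 was 0 with median-ratio scaling and 0 to 1 with a library left out. In U87, pathway genes called higher were 15 with a pseudocount of 0.1 TPM (9 in the report) and 7 to 10 with a library left out, and those called lower were 1 with median-ratio scaling. U118 pathway genes called lower were 9 with median-ratio scaling. U118 neighbours called lower were 2 with median-ratio scaling and 2 to 10 with a library left out. Members of U87 without overlap were 6 to 7 higher and 0 to 2 lower with a library left out, 2 being lower without U87 sensitive replicate 1. Signs turned for genes near no change: IL18BP in U87 was 0.15 with median-ratio scaling, 0.049 without mitochondrially encoded genes and -0.17 to 0.052 with a library left out. With a library left out, IL1RAP was -0.41 to 0.049 in U87, and in U118 it spanned -0.23 to 0.25. Where no cause is given, the cause was not tested. Replicate numbers were not taken as pairing the libraries, since not every same-numbered pair had a correlation over 0.1 in either line: deviations of same-numbered libraries had correlations of -0.0671 to 0.0113 for U87. For U118 these were 0.0512 to 0.139, and each library there correlated best with its own number. With the replicate number as a block, calls were 4 higher and 1 lower for U118 members, 9 and 2 for U87 and 26 and 16 for U118 pathway genes, and 26 and 13 between the lines. TPM gives no depth, so the precision of values under 1 TPM is unknown.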
